A study of Mus musculus with 6 samples.

Results

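H3K79me2 domains were examined over 9 genes that encode the positive transcription elongation factor P-TEFb and the factors around it: Cdk9, Ccnt1, Ccnt2, Hexim1, Supt5, Supt4a, Supt6, Nelfa and Cdk12. The genes were listed by function, and for each the peaks over the annotated gene body plus 3 kb upstream (the gene window) were taken from every peak list. They are 9 of the 55536 genes of the annotation used (GENCODE mouse release 21, GRCm38). Of all gene windows 18781 held a broad peak in at least 1 library. All 9 windows held broad and narrow peaks in all 4 libraries.

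The mark was mapped by chromatin immunoprecipitation and sequencing in N2a, an established cell line from a mouse neuroblastoma. Cells were transfected with the plasmid pLKO.1-shCTR, a short hairpin RNA without a target (CTR, 2 libraries), or with pLKO.1-shNpm1, a hairpin against Npm1 (NPM1 KD, 2 libraries), and were collected after 3 days in vitro. Both groups share the parental line. Transfection is of a mixed population, and puromycin selection was described for the knockdown experiments. Each replicate is a separate passage and transfection batch according to the methods of the study. 1 pooled input per group came without a peak list and was not used here. The CTR libraries are called the controls below, and values of both groups are given for the libraries numbered 1 and 2 in that order. The lists hold no measure of Npm1 RNA or protein, so the knockdown itself could not be checked in them. Peaks are averages over many cells, so the share of cells that carry the mark and its amount per cell cannot be told apart.

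RNA polymerase II commonly stops soon after it starts a gene. The negative elongation factor NELF and the DRB sensitivity inducing factor DSIF hold it there. P-TEFb, a kinase built of CDK9 and cyclin T1 or T2, releases it by phosphorylating NELF, DSIF and the tail of the polymerase, and HEXIM1 together with the 7SK RNA keeps P-TEFb inactive. H3K79me2 is deposited by DOT1L over the first part of transcribed genes, where it follows the elongating polymerase.

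Broad H3K79me2 peaks lay over all 9 genes in all 4 libraries. They covered the whole body of Ccnt2, whereas the first domain of Supt4a ended 1204 and 1215 bp from its start in the CTR libraries. The domain at the gene start ended farther downstream in both NPM1 KD libraries than in both CTR libraries at 7 of the 9 genes, and so it did at 36.8% of the 14799 genes where it could be measured. The mean difference was 2210 bp at Supt4a, 6926 bp at Nelfa and 11130 bp at Cdk12, and at Ccnt1 and Ccnt2 the groups overlapped. At Nelfa and Cdk12 the stretch concerned was marked in the CTR libraries as well, in separate peaks. By covered length 0 of the 9 genes passed limma, as did 0.0266% of the 18781 windows. Nelfa and Cdk12 passed it, with 0.522% of 15895 windows, when peaks with a −log10 q under 5 were left out, a limit that removes the separate CTR peaks beyond the gap and leaves the joined NPM1 KD domain whole.

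The peak lists are of 2 kinds. A narrow peak is a stretch of significant enrichment with a summit. A broad peak joins neighbouring enriched stretches into a domain, so that a single weak stretch can join or split it. The narrow lists held 73801 to 88348 peaks and the broad lists 34845 to 48764. The background pileup (the number of fragments expected at a position), recovered from the fold and p-value of the narrow peaks, served as a relative measure of depth. It was 11.9 and 7.65 in the controls and 8.99 and 11.8 after the knockdown. CTR 2 was thus the shallowest library. Of the marker genes of neuroblastoma cells, Phox2a, Hand2, Gata3, Isl1 and Th held a broad peak in all 4 libraries, and Dbh held none. The windows of Phox2a and Hand2 were covered over 100%. That of Th was covered over only 9.87% and 6.86% in the controls and 7.02% and 2.1% after the knockdown. Of 11 markers of liver, lymphocytes and heart 10 held none and 1, Apoa2, was covered over 6.84% to 8.21% of its window.

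Sequences are shown first for the 250 bases upstream of 4 genes, because the genes differ in whether H3K79me2 covers that stretch. They were read from the GRCm38 assembly of RefSeq, on the strand of the gene, from 5′ to 3′ and ending at the base before the annotated start. Capitals mark matches on either strand to 3 known promoter motifs. The TATA box was searched as TATAAA. For the CCAAT box the letters in its name were searched. The GC box was searched as GGGCGG.
Cdk9, chr2:32713077-32713326, minus strand: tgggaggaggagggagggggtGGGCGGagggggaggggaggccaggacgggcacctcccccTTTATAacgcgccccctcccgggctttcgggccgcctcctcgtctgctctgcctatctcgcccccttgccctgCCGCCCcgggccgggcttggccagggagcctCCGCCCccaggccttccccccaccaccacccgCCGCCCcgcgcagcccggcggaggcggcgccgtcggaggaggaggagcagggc
Hexim1, chr11:103115981-103116230, plus strand: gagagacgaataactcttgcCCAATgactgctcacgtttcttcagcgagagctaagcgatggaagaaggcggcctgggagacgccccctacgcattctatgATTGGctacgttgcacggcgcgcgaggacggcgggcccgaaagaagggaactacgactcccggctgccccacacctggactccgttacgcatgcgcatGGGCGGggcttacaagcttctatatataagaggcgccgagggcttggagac
Supt4a, chr11:87737302-87737551, plus strand: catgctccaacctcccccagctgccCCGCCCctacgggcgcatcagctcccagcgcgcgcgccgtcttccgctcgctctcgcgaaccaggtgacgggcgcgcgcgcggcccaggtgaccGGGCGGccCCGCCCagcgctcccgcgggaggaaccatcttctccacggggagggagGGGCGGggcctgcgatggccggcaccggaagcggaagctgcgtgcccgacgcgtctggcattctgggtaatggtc
Ccnt2, chr1:127773914-127774163, plus strand: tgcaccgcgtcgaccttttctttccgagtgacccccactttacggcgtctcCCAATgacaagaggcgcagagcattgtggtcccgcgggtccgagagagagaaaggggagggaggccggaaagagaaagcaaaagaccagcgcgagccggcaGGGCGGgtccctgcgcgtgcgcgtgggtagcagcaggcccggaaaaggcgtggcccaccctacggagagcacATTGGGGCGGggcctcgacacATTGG

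The upstream stretch of Cdk9 held 1 TATA box match, on the opposite strand, and 4 GC box matches. That of Hexim1 held 2 CCAAT box matches and 1 GC box match. Supt4a had 4 GC box matches. Ccnt2 had 3 CCAAT box matches and 2 GC box matches, of which 1 pair shares bases. Over the same 250 bases of 21938 protein-coding genes, 11.5% held a TATA box match, 36% a CCAAT box match and 39% a GC box match. A match is a description of the letters and not of a bound factor. The RefSeq start, counted from the GENCODE start in the direction of transcription, lay at 292 bp for Cdk9 and 94 bp for Hexim1. It lay at -1 bp for Supt4a and 0 bp for Ccnt2. The GC content was 77.6% for Cdk9, 74.4% for Supt4a, 64.8% for Ccnt2 and 59.2% for Hexim1, against a median of 54%.

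Broad peaks covered this stretch in different ways. For Ccnt2, Supt6, Nelfa and Cdk12 all 250 bases lay inside a broad peak in all 4 libraries. For Supt5 the covered bases were 171 and 250 in the controls and 250 and 241 after the knockdown. For Cdk9 it was 37 bases in NPM1 KD 1 and 0 in the other 3 libraries. For Supt4a it was 17 in CTR 1 and 42 in NPM1 KD 1, and 0 in both libraries numbered 2. For Ccnt1 it was 41 in CTR 2 and 92 in NPM1 KD 2, and 0 in the other 2. For Hexim1 it was 250 bases in NPM1 KD 2 and 0 in the other 3 libraries. The domains of Cdk9, Ccnt1, Supt4a and, in 3 of 4 libraries, Hexim1 therefore began close to the GENCODE start and ran downstream. Those of Ccnt2, Supt6, Nelfa and Cdk12 also ran upstream of it. For Ccnt1 this depends on the annotation: the RefSeq start lies 3187 bp downstream, and the domain ran upstream of that one.

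Genes transcribed away from some of the starts lie under the upstream arms. Sdf2, on the opposite strand, begins 241 bp from the start of Supt6 and overlaps its body by 242 bp, and 7641 bp of Sdf2 lay under the start-site domain of Supt6 in the library with the longest overlap. The antisense transcript 2900009J06Rik begins 72 bp from the start of Ccnt2. Reads from such pairs share 1 domain, and the peak lists carry no strand, so the upstream arms cannot be assigned to 1 gene of the pair. The protein-coding gene 4930415O20Rik begins 81 bp from the annotated start of Ccnt1, and the domain of Ccnt1 touched it in NPM1 KD 2 alone, over 12 bp. The antisense transcript 9330020H09Rik begins 3599 bp from that start, inside Ccnt1. It overlaps the body over 2260 bp, all under the start-site domain of Ccnt1, so the mark there cannot be assigned to either gene. At its 3′ end Nelfa overlaps Nsd2, on the opposite strand, over 60 bp. The RefSeq start of Ccnt1 lies 3187 bp downstream of the GENCODE start used here. That of Cdk12 lies at -626 bp, so the upstream stretch of Cdk12 falls inside the RefSeq gene.

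**Figure D1:**
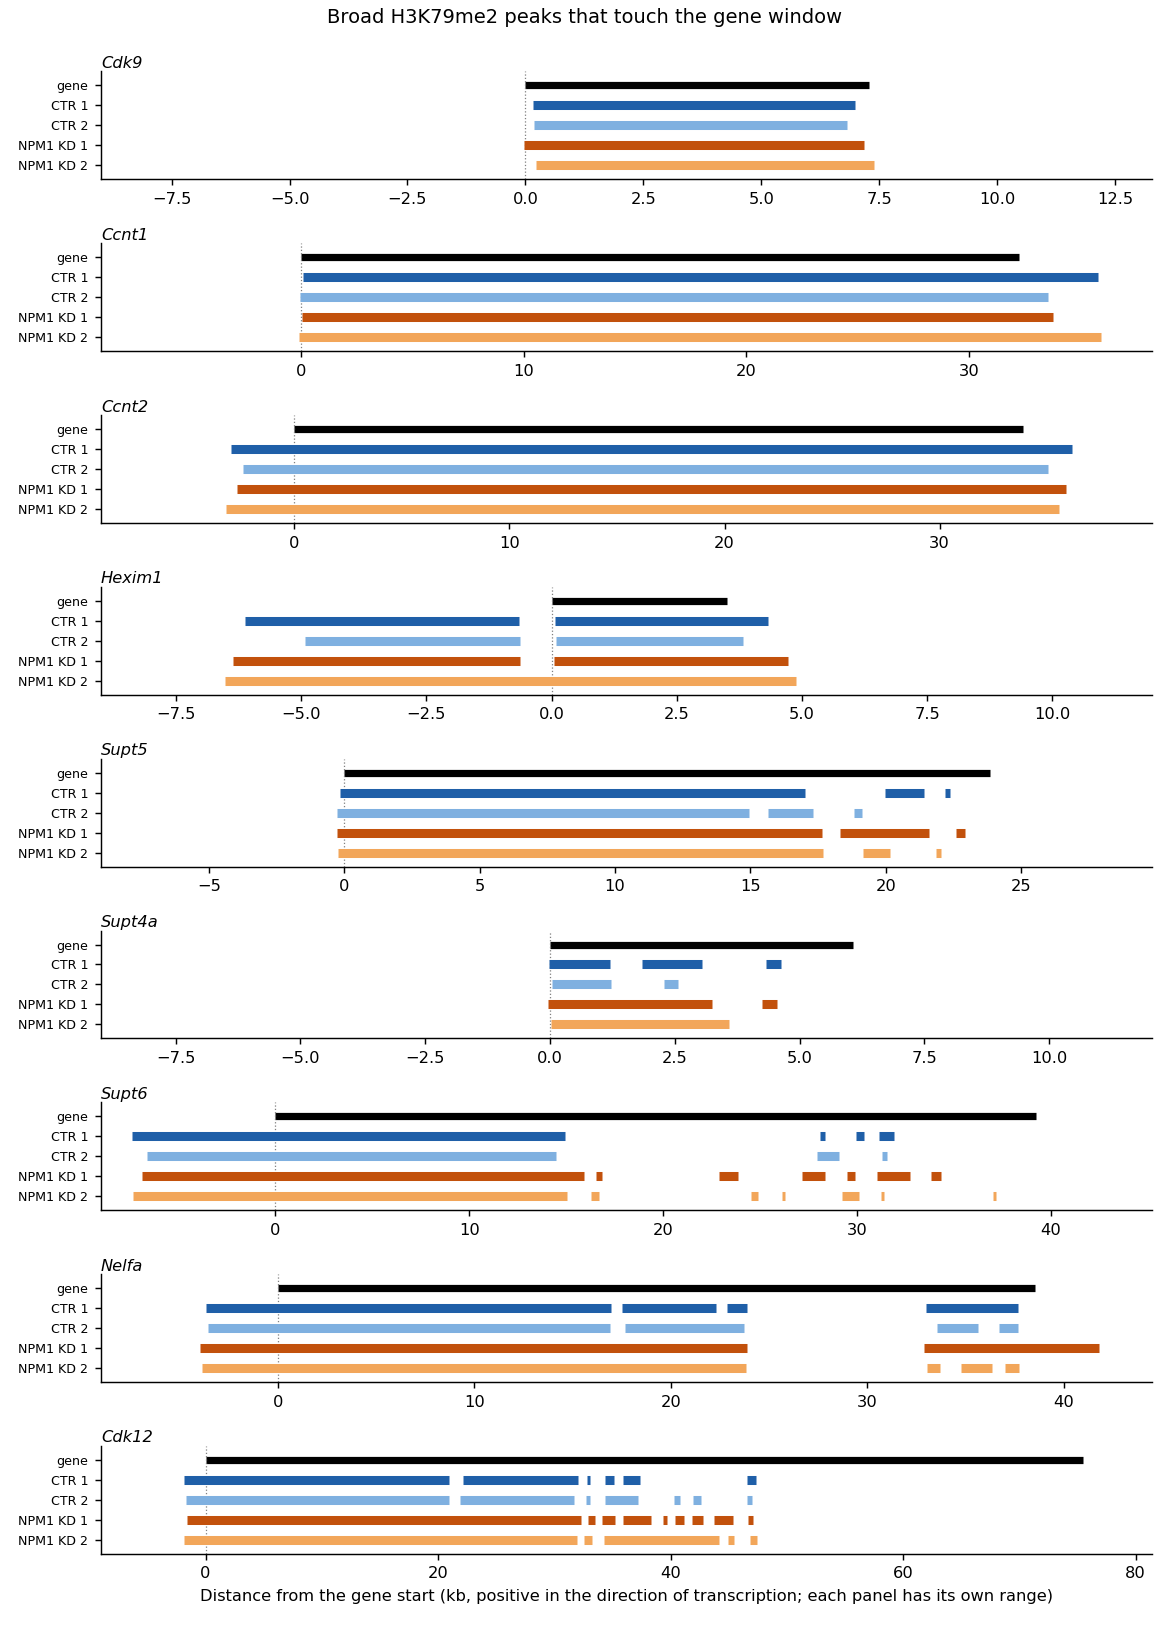
Each panel shows 1 gene, with its annotated body as the black bar and the broad H3K79me2 peaks of CTR 1, CTR 2, NPM1 KD 1 and NPM1 KD 2 as coloured bars, against the distance from the gene start in kb (positive downstream, with a range of its own per panel). The first domains of Nelfa and Cdk12 end near 17 kb and 21 kb in both CTR libraries and run on to near 24 kb and 32 kb in both NPM1 KD libraries, and the split at the start of Hexim1 is closed in NPM1 KD 2.

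The kinase and the cyclins of P-TEFb were described first. Cdk9 (chr2:32705784-32713076, minus strand) encodes the catalytic subunit. A single broad peak covered 6841 and 6648 bp of its window in the controls and 7216 and 7073 bp after the knockdown. The groups did not overlap, with means of 6744 ± 136 bp for CTR and 7144 ± 101 bp for NPM1 KD (SD, n = 2). The difference was 400 bp, or 3.89 percentage points of the window, which with 2 libraries against 2 gives the smallest p that an exact permutation test allows (two-sided, p = 0.333). The same p holds for each measure of a single gene below whose groups did not overlap. The domain was nearly as long as the gene: its downstream edge lay 6992, 6825, 7178 and 7389 bp from the start, in the same order of libraries, against a gene length of 7293 bp. The narrow lists gave 6821, 6633, 6746 and 7056 bp, and there the groups overlapped. In NPM1 KD 1 the broad peak began 37 bp upstream of the start, and in the other 3 libraries it began 152 to 220 bp downstream of it. The microRNA genes Mir2861 and Mir3960, on the same strand, begin 188 and 104 bp from the start of Cdk9. Where the peak covers them, their H3K79me2 cannot be told apart from that of Cdk9. In CTR 2 and NPM1 KD 2 the peak began at 178 and 220 bp, beyond Mir3960.

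Ccnt1 (chr15:98538689-98570923, minus strand) and Ccnt2 (chr1:127774164-127808061, plus strand) encode the cyclins T1 and T2, which activate CDK9 and bind substrates. Both gene bodies were covered almost from end to end. The window of Ccnt1 was covered over 32171 and 32276 bp in the controls and 32191 and 32327 bp after the knockdown. The window of Ccnt2 was covered over 36834, 36290, 36549 and 36898 bp. The groups overlapped for both genes, and the covered share stood at 91.3% to 91.7% for Ccnt1 and 98.4% to 100% for Ccnt2, which leaves little room for a longer domain inside the window. In all 4 libraries the peak ran past the 3′ end, to between 104% and 111% of the gene length in Ccnt1 and between 103% and 107% in Ccnt2. Each gene body was also cut into 4 equal parts. All 4 parts of Ccnt2 were covered in full in every library. It was set beside protein-coding genes of at least 3 kb with a domain at the start in all 4 libraries (n = 9219). The median gene among these had only 0.0422% to 11.8% of its last part covered.

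Hexim1 (chr11:103116231-103119725, plus strand) is a gene of 1 exon that encodes an inhibitor of P-TEFb. Its window was covered over 5784 and 5759 bp in the controls and 5820 and 6495 bp after the knockdown. The groups did not overlap, but NPM1 KD 1 exceeded CTR 1 by only 36 bp, and most of the mean difference of 386 bp came from NPM1 KD 2. In CTR 1, CTR 2 and NPM1 KD 1 there were 2 domains, of which the upstream one ended at -646, -640 and -635 bp from the start and the downstream one began at 66, 97 and 41 bp. In NPM1 KD 2 a single peak of 11407 bp ran across the start, and the bases printed above are part of the stretch it joined. The narrow lists kept 2 peaks in all 4 libraries. The downstream edge, counted from the start, was 4322, 3830, 4725 and 4879 bp, higher in both NPM1 KD libraries by 726 bp on average. The upstream domain reached back over the end of the neighbouring gene Acbd4 and cannot be assigned to either gene.

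Supt5 (chr7:28314891-28338746, minus strand) and Supt4a (chr11:87737552-87743623, plus strand) encode both subunits of DSIF, which travels with the polymerase, yet their domains differed in size and strength. Supt5 was covered over 18820 and 17172 bp in the controls and 21558 and 19107 bp after the knockdown. The means were 17996 ± 1165 bp and 20332 ± 1733 bp (SD, n = 2), without overlap, although NPM1 KD 2 lay only 287 bp above CTR 1. The first 2 of the 4 parts of the body were covered in full in every library. Differences began in the third part, with 85.2%, 78.5%, 96% and 96.3%, and continued in the last, with 27.5%, 5.11%, 60.7% and 20%, where the groups overlapped. The peaks beyond the first domain were faint, with a fold of 1.85 to 2.17 for the next one. The antisense transcript Gm44709 overlaps Supt5 over 3976 bp at its 3′ end, so the most distal peaks cannot be assigned to 1 of the pair.

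Supt4a had the weakest mark of the 9 genes. Its window was covered over 2727 and 1440 bp in the controls and 3579 and 3575 bp after the knockdown. The groups did not overlap, at 2084 ± 910 bp for CTR and 3577 ± 2.83 bp for NPM1 KD (SD, n = 2). The first domain ended 1204 and 1215 bp from the start in the CTR libraries and 3250 and 3590 bp in the NPM1 KD libraries, all within intron 2. In CTR 1 a second peak lay between 1843 and 3042 bp with a fold of 1.77, after a gap of 638 bp. In CTR 2 a second peak lay between 2290 and 2554 bp with a fold of 2, after a gap of 1074 bp. Part of the stretch was thus marked in both controls as well and was called apart. Merging peaks within 1 kb gave a downstream edge of 3042 and 1215 bp in the controls and 3250 and 3590 bp after the knockdown. The narrow lists, which do not join domains, covered 1378, 1138, 2191 and 2635 bp and kept the order of the groups. The highest summit held 84, 40, 76 and 80 fragments, so that in the shallow library CTR 2 the calls rest on few fragments.

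Supt6 (chr11:78206746-78245987, minus strand) encodes a histone chaperone that moves with the elongating polymerase. It was covered over 19372 and 18879 bp in the controls and 24071 and 20166 bp after the knockdown. The NPM1 KD libraries lay above the CTR libraries, but they differed from each other by more than NPM1 KD 2 differed from CTR 1. NPM1 KD 1 carried 7 broad peaks in the window and NPM1 KD 2 also 7, against 4 and 3 in CTR. The first domain ended 14921, 14455, 15926 and 15050 bp from the start, between intron 6 and intron 8. Only 663 bp of the window lay in both NPM1 KD libraries and in neither CTR library. In the narrow lists the groups overlapped, with 18103, 18148, 20053 and 17957 bp.

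Nelfa (chr5:33897916-33936413, minus strand) encodes the NELF subunit A, and Cdk12 (chr11:98203059-98278504, plus strand) a kinase of the polymerase tail that acts further into genes together with cyclin K. Both had the same arrangement. In both CTR libraries the first domain stopped at a gap, and in both NPM1 KD libraries the domain crossed it. The first domain of Nelfa ended 16948 and 16878 bp from the start in the controls, and 23872 and 23806 bp from it after the knockdown. The difference of 6926 bp was large against an SD of 49.5 bp for CTR and 46.7 bp for NPM1 KD (n = 2). The first domain of Cdk12 ended at 20952 and 20976 bp in CTR and at 32280 and 31909 bp in NPM1 KD. Here the difference was 11130 bp, with SDs of 17 and 262 bp (n = 2). In Nelfa the edge lay in intron 3 in both groups. In Cdk12 it lay in intron 5 in the controls and in intron 8 after the knockdown.

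The stretch beyond the gap was marked in CTR too. In Nelfa the next peak began after 567 bp in CTR 1 and 807 bp in CTR 2, with folds of 2.34 and 2.45. In CTR 1 a further peak reached 23873 bp and in CTR 2 the next peak reached 23740 bp, which is where the joined domain ended in NPM1 KD. In Cdk12 the gap was 1156 bp in CTR 1 and 938 bp in CTR 2, and the next peak, with folds of 2.25 and 2.46, reached 32016 and 31711 bp. The position of the edge thus turned on short gaps, at which the domain was split in CTR and joined in NPM1 KD. Merging peaks within 1 kb removed the difference in Nelfa, with 23873, 23740, 23872 and 23806 bp. In Cdk12 it left 20952 and 31711 bp in the controls and 38348 and 45471 bp after the knockdown.

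The bases covered in both NPM1 KD libraries and in neither CTR library at these gaps are chr5:33918898-33919464 in intron 3 of Nelfa, 567 bp, and chr11:98224036-98224973 in Cdk12, 938 bp, which begins in intron 5, holds exon 6 and ends in intron 6. The GC content was 29.1% and 31%, and 32.6% and 42.8% of the bases are soft-masked as repeats in the assembly. Whether base composition or repeats had a part in the gaps was not tested. The narrow lists held 12 and 202 bp of the Nelfa stretch and 168 and 376 bp of the Cdk12 stretch after the knockdown, and 0 bp of either in the controls. Both stretches were chosen for lying in no CTR broad peak, so the 0 bp in the controls is no separate support. The middle 300 bases are shown because the longer domains turn on them. They are on the strand of the gene, with soft-masked bases in capitals.
Nelfa, chr5:33919032-33919331, minus strand: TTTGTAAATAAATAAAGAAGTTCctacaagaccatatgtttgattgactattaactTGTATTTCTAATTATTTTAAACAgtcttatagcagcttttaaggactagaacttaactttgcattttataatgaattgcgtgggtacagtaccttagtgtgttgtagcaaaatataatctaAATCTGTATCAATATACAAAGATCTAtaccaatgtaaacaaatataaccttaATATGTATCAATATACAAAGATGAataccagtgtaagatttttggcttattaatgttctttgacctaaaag
Cdk12, chr11:98224355-98224654, plus strand: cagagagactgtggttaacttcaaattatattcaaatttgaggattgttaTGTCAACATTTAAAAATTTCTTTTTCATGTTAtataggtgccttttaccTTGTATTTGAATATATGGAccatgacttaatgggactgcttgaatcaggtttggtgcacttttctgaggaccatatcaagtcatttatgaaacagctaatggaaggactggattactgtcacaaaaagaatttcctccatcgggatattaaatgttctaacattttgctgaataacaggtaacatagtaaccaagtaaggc

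Covered length gave the same picture in Cdk12 and a weaker one in Nelfa. Nelfa was covered over 30426 and 28974 bp in the controls and 32481 and 29788 bp after the knockdown, so the groups overlapped, with CTR 1 above NPM1 KD 2. In the narrow lists they did not, with 25322, 24468, 28066 and 26326 bp. Cdk12 was covered over 35883, 37326, 42013 and 45462 bp. This difference of 7133 bp between means of 36604 ± 1020 and 43738 ± 2439 bp (SD, n = 2) was the largest among the 9 genes in base pairs. It lay in the second and the third part of the gene body. Of the second, 76.7% and 80.4% was covered in CTR and 89.5% and 91.3% in NPM1 KD, and of the third part 3.94% and 8.57% against 25% and 40%. The NPM1 KD peaks in the third part were faint, with folds of 1.79 to 2.28 and a −log10 q of 1.37 to 3.65. Those of CTR had folds of 1.92 to 2.25 and a −log10 q of 1.27 to 2.76. The last part of Cdk12 was bare in all 4 libraries. In total 3758 bp of the Cdk12 window lay in both NPM1 KD libraries and in neither CTR library, and 17 bp the other way round. In Nelfa these sums were 643 and 0 bp.

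**Figure D2:**
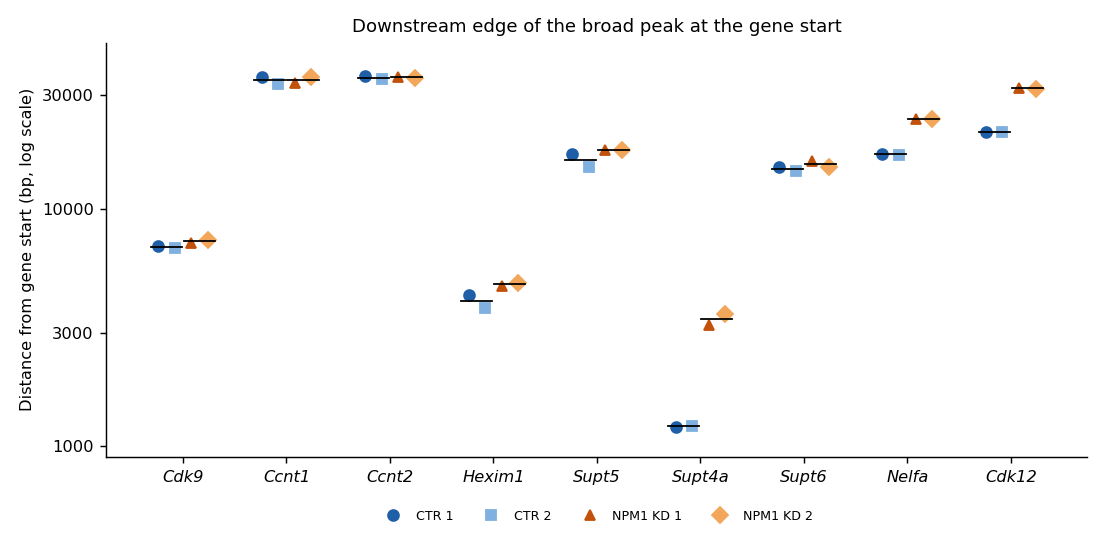
The distance in bp from the gene start to the downstream edge of the broad peak that lies within 1 kb of the start is shown on a log axis for each of the 9 genes, with 1 symbol per library and a line at each group mean. Supt4a, Nelfa and Cdk12 show the widest separation, with CTR at 1204 and 1215, 16948 and 16878, and 20952 and 20976 bp, while Ccnt1 and Ccnt2 overlap between the groups.

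Set side by side, the knockdown libraries exceeded both controls in covered length for 6 of the 9 genes in the broad lists (Cdk9, Hexim1, Supt5, Supt4a, Supt6 and Cdk12), fell below both for 0, and overlapped with them for 3. Across the 18781 gene windows with a broad peak this separation was met by 38.7% upward and 3.14% downward. Among the 11233 protein-coding genes with a broad peak in all 4 libraries it was 47.9% and 2.88%. By the narrow lists the knockdown libraries were the higher ones for 6 of the 9 genes (Ccnt2, Hexim1, Supt5, Supt4a, Nelfa and Cdk12) and below for 0, against 35.9% and 4.44% of 19028 windows. The downstream edge of the first domain lay farther in both NPM1 KD libraries for 7 of the 9 genes, all but Ccnt1 and Ccnt2, and nearer for 0, against 36.8% and 6.16% of 14799 genes. Compared by library number, covered length in the broad lists was higher in both same-numbered differences for 8 of the 9 genes and for 51.7% of the 18781 windows. The upward share is high over the whole annotation, so the counts of the 9 genes say little that is particular to them. Their median change in log2(covered bp + 1000) was 0.08, beside 0.06 over all windows and 0.08 over protein-coding ones.

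Depth differed between libraries. CTR 2, the shallowest, had the lowest covered length in 7 of the 9 genes, all but Ccnt1 and Cdk12. NPM1 KD 1, shallower than CTR 1, had the highest in 5 of the 9 (Cdk9, Supt5, Supt4a, Supt6 and Nelfa). CTR 1 and NPM1 KD 2 had nearly the same background pileup. Between these 2 libraries NPM1 KD 2 was higher for 8 genes and lower for Nelfa, with differences of 64 bp (Ccnt2) to 9579 bp (Cdk12) upward and -638 bp for Nelfa. Over all windows 49.3% were higher and 35.8% lower in NPM1 KD 2 than in CTR 1. This pair has no replicate and was chosen after the depths were seen.

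The extent of the domains was tested with limma across the 18781 windows, fitted to log2(covered bp + 1000), and p-values were adjusted after Benjamini and Hochberg. None of the 9 genes passed an adjusted p of 0.05, and 1 of them had an unadjusted p under 0.05. Over all windows 5 passed, or 0.0266%, and 2476 had an unadjusted p under 0.05. The difference was 0.25 ± 0.056 on the log2 scale for Cdk12 (SE, limma adjusted p = 0.332) and 0.073 ± 0.020 for Cdk9 (SE, limma adjusted p = 0.38). Supt4a had the largest estimate, 0.60 ± 0.27 (SE, limma adjusted p = 0.513), and the estimate was 0.91 without CTR 1 and 0.30 without CTR 2 (limma adjusted p = 0.161 and 0.231). For the other 6 genes the estimates ran from 0.0015 in Ccnt1 to 0.20 in Supt6, with limma adjusted p of 0.583 to 1. Without NPM1 KD 1 the estimate was 0.0045 in place of 0.065 for Nelfa, 0.083 in place of 0.17 for Supt5 and 0.073 in place of 0.20 for Supt6, and without NPM1 KD 2 that of Hexim1 was 0.010 in place of 0.078. At 2 libraries per group these differences could not be separated from the spread between libraries.

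The calls depended on the fainter peaks. When only peaks with a −log10 q of 5 or more were kept, Nelfa (adjusted p = 0.015) and Cdk12 (adjusted p = 0.0117) passed the limma test, among 83 windows, or 0.522% of 15895. The covered length was then 19949, 19879, 26873 and 26807 bp in Nelfa and 22770, 22657, 33854 and 33734 bp in Cdk12, in the order CTR 1, CTR 2, NPM1 KD 1, NPM1 KD 2. A broad peak has 1 q value for its whole length. In CTR the stretch beyond the gap lay in peaks of its own with a −log10 q of 3.23 to 4.34 in Nelfa and of 3.19 to 3.62 in Cdk12, which this limit removes, whereas in NPM1 KD it was part of the strong domain and stayed. Supt4a, with 1222, 1175, 3293 and 3575 bp, had an adjusted p of 0.0776 under the same limit.

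**Figure D3:**
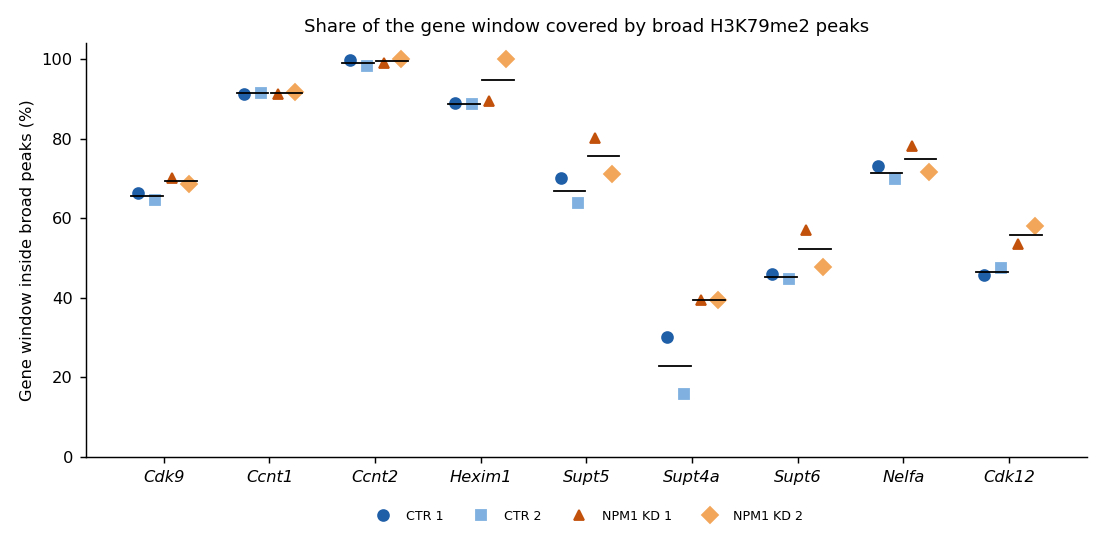
The percentage of each gene window inside broad H3K79me2 peaks is shown for the 9 genes, with 1 symbol per library and a line at each group mean. Supt4a lies lowest, between 15.9% and 39.5%, Ccnt2 highest, between 98.4% and 100%, and in Cdk12 both NPM1 KD libraries (53.6% and 58%) lie above the controls (45.7% and 47.6%).

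The genes were also ordered by how far they were covered. The mean over the 4 libraries was 99.3% of the window for Ccnt2, 91.8% for Hexim1, 91.5% for Ccnt1, 73.3% for Nelfa, 71.4% for Supt5, 67.5% for Cdk9, 51.2% for Cdk12, 48.8% for Supt6 and 31.2% for Supt4a. Neighbours in this order mostly overlapped over the libraries. The ranges of Ccnt2 and Hexim1, Hexim1 and Ccnt1, Nelfa and Supt5, Supt5 and Cdk9, and Cdk12 and Supt6 cross. The ranges of Ccnt1 and Nelfa, Cdk9 and Cdk12, and Supt6 and Supt4a do not. The median of the 9 genes was 71.4%, beside a median of 46.9% over 11863 protein-coding windows with a broad peak, and 8 of the 9 stood between percentiles 51.6 and 97.1 of these. Supt4a stood at percentile 34.8.

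Strength was read from the summits of the narrow peaks, given as fold over background. Ccnt2 had the highest summits of the 9 genes in both controls, with a fold of 37.2 and 40.2 in the controls and 34.6 and 26.7 after the knockdown. Supt5 was higher than Ccnt2 in NPM1 KD 1, and Ccnt1 and Cdk12 were higher in NPM1 KD 2. The NPM1 KD values of Ccnt2 lay below those of CTR. Cdk12 followed the same order of groups, with 33.4, 33.4, 30.7 and 28.8, as did Ccnt1, with 32, 34, 29 and 29, and Cdk9, with 21.8, 19.9, 19 and 17.9. Supt5 stood at 34.4, 32.7, 35.8 and 25.7, and Supt6 at 25.9, 26.9, 27 and 22.4, with overlap. Hexim1 gave 28, 23.5, 24.5 and 22.2, and Nelfa 20.3, 20.7, 20.8 and 18.8. Supt4a was far below the others, at 6.6, 4.74, 7.71 and 6.34. Both NPM1 KD libraries thus had a lower fold than both CTR libraries in 4 of the 9 genes and a higher one in 0, against 28.9% and 10% of 17231 windows. NPM1 KD 2 had the lowest fold in 7 of the genes, all but Supt4a and Ccnt1, and in 60.2% of the windows.

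**Figure D4:**
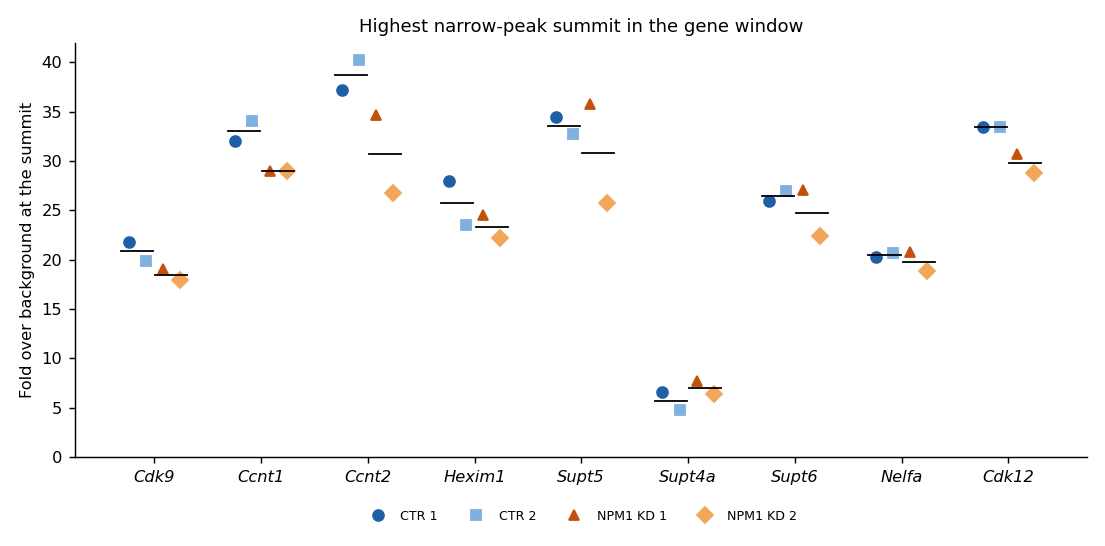
The fold over background at the highest narrow-peak summit of each gene window is shown with 1 symbol per library and a line at each group mean. The symbols of Supt4a lie between 4.74 and 7.71 and those of the other 8 genes between 17.9 and 40.2, and NPM1 KD 2 is the lowest symbol in every gene except Supt4a and Ccnt1, where both NPM1 KD symbols stand at 29.

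A fold is set against the background of its own library, so the percentile of a gene's highest fold among the peaks of the same list was compared as well. In the narrow lists it lay between 95.8 and 99.6 for 8 of the genes, and for Supt4a at 87.1 and 78.5 in the controls and 89.4 and 88 after the knockdown. This sets the highest peak of a window against single peaks and not against other genes. The mean of the percentiles was also ranked among protein-coding genes with a narrow peak in every library. There the 8 genes stood between percentiles 67.7 (Cdk9) and 94.2 (Ccnt2), and Supt4a at 18.3. By the percentile among peaks, the groups of Cdk9, Ccnt1, Ccnt2 and Cdk12 overlapped. Both NPM1 KD libraries ranked above both CTR libraries for 3 genes (Supt4a, Supt6 and Nelfa) and below for 0, against 34.3% and 5.85% of 17231 windows. In the broad lists, where the fold is a mean over the domain, they ranked above for 2 (Ccnt1 and Supt6) and below for 1 (Cdk12), against 28.7% and 4.44% of 17091 windows. The mean fold of the first domain of Cdk12 was 9.39 and 9.81 in CTR and 7.03 and 7.12 in NPM1 KD, and that of Nelfa 8.79 and 8.81 against 7.07 and 7.23. A domain that takes in a fainter stretch has a lower mean by construction, and the joined domain of Hexim1 in NPM1 KD 2 likewise had 6.17 against 9.9 to 10.8 in the other 3 libraries.

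The summits lay downstream of the starts. In Ccnt2 they lay 409 to 460 bp from the start, in Supt6 553 to 645 bp, in Supt4a 250 to 372 bp and in Cdk12 1294 to 1337 bp, within a narrow range over all 4 libraries. In Cdk9 the highest summit alternated between 2 places, 830 and 875 bp in the libraries numbered 1 and 1526 and 1549 bp in those numbered 2. In Nelfa it was 533 and 930 bp in CTR 1 and NPM1 KD 2 and 3810 and 3819 bp in CTR 2 and NPM1 KD 1. In Ccnt1 it was 3667 to 4678 bp from the GENCODE start, which is 3187 bp upstream of the RefSeq start. Neither choice of summit followed the groups.

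22 further genes of the pathway were examined by count. Of these 21 held a broad peak in all 4 libraries, and Rn7sk, the gene of the 7SK RNA, held none. Covered length lay higher in both NPM1 KD libraries for 9, lower for 0, and overlapped for 13, beside 38.7% of all windows higher. That share was 47.9% among protein-coding genes with a broad peak in all 4 libraries. In the narrow lists covered length lay higher for 13 and lower for 0, beside 35.9% of windows higher. Of the 7SK partners Hexim2, Larp7 and Mepce and the NELF subunits Nelfb, Nelfcd and Nelfe, 0 were separated in the broad lists. In the narrow lists Larp7 and Nelfb were separated upward and the others overlapped, beside the same 35.9% of windows. Hexim2, which lies beside Hexim1 on chromosome 11, was covered over 93.2%, 89.8%, 90.6% and 85.1% of its window, with overlap.

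Among 7 other kinases and cyclins of the polymerase tail 5 were separated upward in the broad lists and 7 in the narrow lists, beside 38.7% and 35.9% of all windows. The broad share was 47.9% among protein-coding genes with a broad peak in all 4 libraries, which all 7 had. Mnat1, Ccnh and Cdk7 encode the 3 subunits of the kinase of the initiation factor TFIIH. Mnat1 was covered over 54.1% and 51.4% in CTR and 63.1% and 65.2% in NPM1 KD, Ccnh over 40.8% and 42% against 50.6% and 50.9%, and Cdk7 over 80.2% and 73.7% against 88.8% and 81.4%. Cdk13, the relative of Cdk12, was covered over 61.6% and 61.5% against 65.8% and 72.7%, and Ccnk, the cyclin of both, over 94.2% and 92.9% against 95.4% and 96%. Cdk8 and Ccnc overlapped in the broad lists. Of 8 other elongation factors and polymerase genes 4 were separated upward in the broad lists and 4 in the narrow lists, beside the same shares of all windows. Those of the broad lists differed by small amounts: Ssrp1 (81% and 79% against 83.6% and 81.5%), Supt16 (73.7% and 71.9% against 74.8% and 75.1%), Polr2m (75.6% and 73.4% against 75.9% and 75.7%) and Polr2a (53.7% and 50.6% against 55.4% and 54.9%). The groups of the other 4 overlapped. None of these genes passed the limma test across all windows.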

How the data were processed

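H3K79me2 ChIP-seq peak lists of 4 libraries were analysed, 2 per group. The authors aligned reads to mm10 (GRCm38) with Bowtie2 2.3.4.1 and called peaks with MACS2 per library, not on pooled replicates. Its version was 2.2.6 in the submitters' processing notes, and use of the inputs was not stated. The deposited score is 10 times the −log10 q. The deposited fold is a ratio of pileup to background, at the summit in narrow lists and as a mean in broad ones, and the −log10 p-value and q-value are as deposited by the authors. Total read numbers are unknown. Only the broad peak names carry the word filtered.

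Covered bp per gene window, the percentile of the highest fold among the peaks of its list, and the downstream edge of the broad peak within 1 kb of the start were computed with Python 3.11.15, numpy 2.4.6 and pandas 2.3.3, and plotted with matplotlib 3.10.9. Groups were compared by the exact permutation test over libraries (scipy 1.17.1) and, over windows with a broad peak, by limma 3.58.1 (R 4.3.3) fitted to log2(covered bp + 1000), at an adjusted p of 0.05. The code for covered bp and that for limma were tested on simulated data. The permutation test and the code for the downstream edge and the highest fold were not. All 9 genes are named. Of 22 further pathway genes, those with separated groups in the broad lists or next to a member are given with values. The genes and lists were chosen with earlier results of these data known. Alternatives were narrow peaks, peaks whose −log10 q was 5 or more, the gene body alone, peaks within 1 kb merged, lists of equal size, a pseudocount of 200 bp, no filter, protein-coding genes alone, a replicate block and each library left out. Values of some genes on the lists of markers and of further pathway genes are not reported here.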

Additional observations from a re-analysis of the deposited data

How the results depend on the processing

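Covered length in the broad lists kept its direction in 84 of 90 alternative values of the 9 genes, and 2 were 0 bp (Ccnt2 in the gene body alone, Hexim1 with peaks within 1 kb merged). The 84 include the replicate block for each of the 9 genes. Its mean difference equals the main one by construction, so these values could not turn. With 1 library left out, Ccnt1 ran from -32.5 to 104 bp and Ccnt2 from -110 to 434 bp, turning without CTR replicate 1 or NPM1 KD replicate 2 (-17 and -32.5 bp, Ccnt1) and without CTR replicate 2 or NPM1 KD replicate 2 (-110 and -13 bp, Ccnt2). The 6 genes with higher NPM1 KD libraries became 3 with peaks within 1 kb merged, because gaps are closed in CTR as well, and 7 to 8 with 1 library left out. Between CTR 1 and NPM1 KD 2 alone, chosen after the data were seen, 1 gene was lower. For the downstream edge, the count of 0 lower genes ran from 0 to 1 with 1 library left out, the difference of Ccnt1 from -933 to 1271 bp and that of Ccnt2 from -452 to 684 bp.

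The percentile of the highest fold changed most. The 2 genes ranked higher became 1 with a −log10 q of at least 5 and 3 to 5 with 1 library left out. The 1 ranked lower became 0 in the narrow lists, 2 with a −log10 q of at least 5 and 1 to 3 with 1 library left out. The difference turned in the narrow lists for Ccnt2 (-0.183 percentile points), Hexim1 (0.422), Supt4a (5.89), Nelfa (0.759) and Cdk12 (0.21), and with a −log10 q of at least 5 for Ccnt2 (-0.143). With 1 library left out it ran from -0.137 to 2.11 for Cdk9, from -0.0118 to 0.304 for Ccnt2, from -5.03 to 1.09 for Hexim1 and from -6.19 to 4.53 for Supt4a.

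The 5 windows that passed limma became 0 in the narrow lists, 83 with a −log10 q of at least 5, 81 in gene bodies, 12 with peaks merged, 0 at equal list size, 22 at a pseudocount of 200 bp, 18 without a filter, 1 among protein-coding genes and 0 with any library left out, where a lone library is assumed to vary like the others. With a −log10 q of at least 5, 2 of the 9 genes passed (Nelfa and Cdk12), and under each other alternative 0. Without a filter most windows have no variance, and the limma estimate of spread is unreliable. Libraries of different groups share replicate numbers. Same-numbered deviations had a correlation of 0.195 in only 2 pairs, so the numbers were not taken as pairs. With a replicate block 0 windows passed limma and 3035 had an unadjusted p under 0.05, and covered length was higher in both same-numbered differences for 8 of the 9 genes and 51.7% of all windows. CTR 2 was the shallowest library, with a background pileup of 7.65, and what depth did to the faint peaks was not tested.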
